A study of Mus musculus with 32 samples.

Results

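The regions described here are stretches of RNA crosslinked to Argonaute2 (Ago2) in mouse induced neurons that the authors' deposited table matched to miR-495-3p, miR-543-3p, miR-377-3p, miR-300-5p, miR-1193-3p or miR-539-5p. Regions that the table also matched to any of 13 abundant microRNAs of the same cluster were left out, among them miR-382-5p, miR-379-5p and miR-300-3p. This removed 11 of 276 regions and left 265 member regions, out of 874 matched to any microRNA of the cluster and 22400 in the deposited peak list. They lie in 224 genes, all of which were found in the RNA-seq tables.

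Cells were hybrid mouse ESCs (embryonic stem cells at day 0, in medium with FBS and LIF) or iNs (induced neurons at day 10), made by switching on TetO-Ngn2 with doxycycline. Deletion cells were Mirg(Delta/+), with the maternal copy of the miR-379/410 cluster removed, and control cells were Mirg(fl/+), with a floxed maternal copy. Small RNA-seq and RNA-seq after rRNA depletion each had 3 libraries per genotype and cell type, lettered A to C, and the labels do not say whether letters stand for separate clones or cultures. The CLIP libraries, 8 in all, came from control iNs expressing exogenous HA-Ago2 or untagged-Ago2, UV crosslinked at 400 mJ/cm2, with 2 replicates each of the anti-HA immunoprecipitate (IP) and of the input. The deposited CLIP lists give 1 value per region for both replicates, so every region value below is the authors' and carries no replicate error, and no region was measured in deletion cells or in ESCs.

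MicroRNAs are short RNAs that Argonaute proteins carry to messenger RNAs, mostly through pairing between the message and the seed, bases 2 to 8 counted from the microRNA's 5′ end. A paired message is usually repressed through TNRC6 proteins, which recruit enzymes that shorten its tail and destabilise it. The miR-379/410 cluster lies in the imprinted Dlk1-Dio3 domain, is expressed from the maternal chromosome in mouse and is active in brain and in embryonic tissue.

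The mature sequences of the 6 microRNAs, from RefSeq on GRCm38.p6, are shown with the seed in capitals because the table's matches are named by them. All lie on the + strand of chromosome 12.
miR-495-3p: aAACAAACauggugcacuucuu
miR-543-3p: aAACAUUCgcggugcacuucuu
miR-377-3p: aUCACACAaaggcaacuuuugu
miR-300-5p: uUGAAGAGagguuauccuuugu
miR-1193-3p: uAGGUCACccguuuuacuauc
miR-539-5p: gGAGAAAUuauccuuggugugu
No seed is shared within this set. The seeds of miR-495-3p and miR-543-3p are the closest pair, with 5 of 7 positions identical, and the 3′ parts of these microRNAs also resemble each other. The miR-495-3p seed also occurs in miR-1192 and miR-12200-5p, and the miR-1193-3p seed in miR-370-5p. A match to these seeds does not tell such microRNAs apart.

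The member regions stood above the untagged IP about as far as regions matched to abundant microRNAs of the cluster. The authors' log2 fold of HA-Ago2 IP over untagged IP had a median of 1.67 over the 265 member regions, with quartiles of 0.68 and 2.65. It reached 1 or more in 63.4% of them and was 0 or less in 24. The authors' −log10 p over untagged IP, from an unstated caller, was at least 1.3 (p of 0.05) in 141 of the 265. In 134 regions both comparisons passed that p with a log2 fold of at least 1. The 271 regions matched to the abundant microRNAs had a median of 1.58, with 70.1% at 1 or more, and the 338 regions matched only to other cluster microRNAs had a median of 1.33, with 58.6%. The 21526 regions with no match had a median of −0.18, with 16.5% at 1 or more. Over the input, member regions had a median log2 fold of 2.72 and unmatched regions one of 2.21. There 88.7% of member regions and 89.99% of unmatched regions reached 1, so the contrast with unmatched regions lay in the comparison with untagged Ago2. Member regions were also longer, with a median of 45 bases against 32 for unmatched regions, and folds were not compared at equal length. Regions are not replicates, and these differences are descriptions with no test.

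The 6 microRNAs differed in their regions. miR-495-3p was matched to 84 member regions in 79 genes, with a median log2 fold over untagged IP of 1.92. miR-543-3p was matched to 45 regions in 41 genes, with a median of 1.94. miR-377-3p was matched to 32 regions in 31 genes, with a median of 1.58. Regions of the first pair thus stood highest above untagged IP, while the spread within each microRNA covered most of the whole range. miR-300-5p was matched to 42 regions in 39 genes, with a median of 1.42. miR-539-5p was matched to 34 regions in 31 genes, with a median of 1.49. miR-1193-3p was matched to 36 regions in 35 genes and had the lowest median, 0.95, with 47.2% of its regions at a log2 fold of 1 or more, against 75.6% for miR-543-3p.

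**Figure D1:**
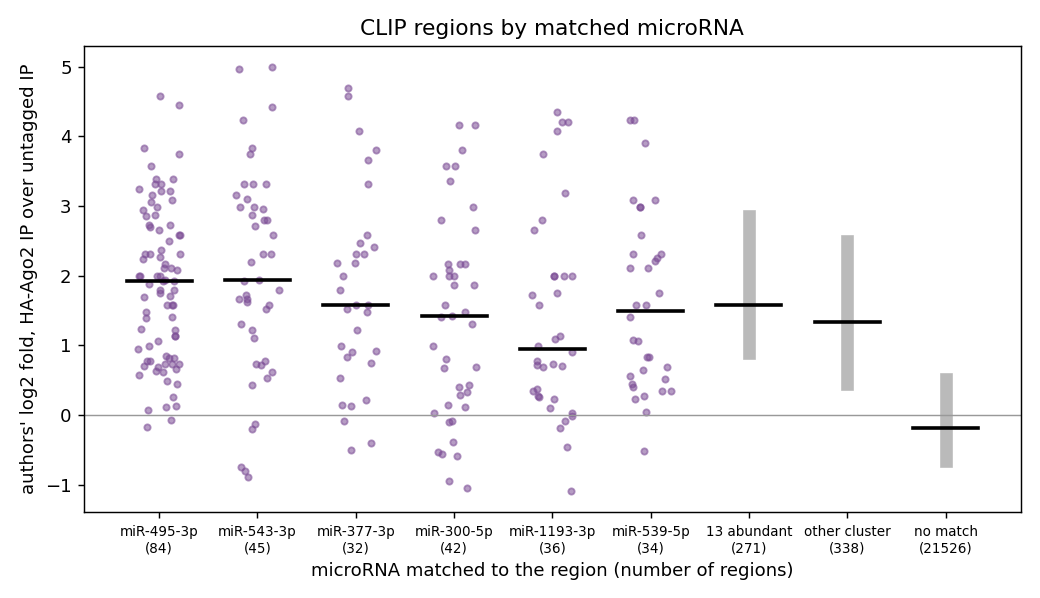
Authors' log2 fold of HA-Ago2 IP over untagged IP (y axis) for each member region (points) by matched microRNA (x axis, with the number of regions); black lines are medians, and grey bars span the quartiles of the other classes of region. Medians of the 6 microRNAs lie between 0.95 and 1.94, all above the −0.18 of unmatched regions, and points of every microRNA spread from below 0 to above 4.

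The matched sites were short and mostly near the 3′ ends of genes. The 265 regions had a median length of 45 bases, from 1 to 146, and held 271 distinct sites. Counting a site once in each region that the table matched to it gives 283, of which 237 were 7 bases wide, 43 were 8 and 3 were longer. Of these sites, 189 lay wholly inside the region and 94 crossed its edge. Of the 265 regions, 249 had 1 site, 16 had more, and 8 were matched to a pair of the 6 microRNAs. In RefSeq's gene bounds, 255 regions lay inside the gene that the table names, at a median distance of 1640.5 bases from its 3′ end. Of these, 86 (33.7%) lay within 1000 bases of that end, 232 within 5000, and 165 in the last 10% of the gene. Whether a region is exonic or in a UTR was not analysed here, since the annotation used gives gene bounds only, and the letters of the sites were not read. The table marks each site C or N without saying in the file what the letters mean. Among member sites 46 of 283 were C, with 19 of 93 for miR-495-3p, 14 of 45 for miR-543-3p, 10 of 37 for miR-1193-3p, 2 of 32 for miR-377-3p, 1 of 42 for miR-300-5p and 0 of 34 for miR-539-5p.

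The region of highest fold lay in Zfp367, which encodes a zinc finger transcription factor, at chr13:64133634-64133664 (mm10, − strand), was matched to miR-543-3p with an 8-base site, and had a log2 fold of 4.99 over untagged IP and 3.59 over input. Another Zfp367 region, matched to miR-377-3p, had 3.80 over untagged IP. Ddx3x, an X-linked RNA helicase, carried a miR-543-3p region at chrX:13293367-13293418 with a log2 fold of 4.97 and a miR-495-3p region upstream of it, at chrX:13292969-13293012, with 3.31. Both Ddx3x regions lay within 1000 bases of the gene's 3′ end.

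Among single-region genes, Pptc7, which encodes a mitochondrial phosphatase, had a miR-377-3p region with a log2 fold of 4.69 over untagged IP. Cux1, a homeodomain transcription factor, was highest for miR-495-3p, with 4.58. Rictor, a subunit of the kinase complex mTORC2, also had 4.58, with a miR-377-3p site. Zfp280b, a zinc finger gene, followed with 4.45 for miR-495-3p, and Klf2, a Krüppel-like transcription factor, with 4.42 for miR-543-3p. The highest miR-300-5p regions lay in Npat, a regulator of histone gene transcription, and in Yod1, with 4.16 each, and the highest miR-539-5p region in Asxl3, a chromatin regulator, with 4.24. Lin28b, whose protein blocks let-7 maturation, had the same value of 4.24 for miR-539-5p.

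Of the 224 genes, 32 carried more than 1 member region and 29 carried regions of more than 1 of the 6 microRNAs. In 8 of these 32 genes the regions shared a single site, as in Neurod1, a neuronal transcription factor whose pair of regions (log2 fold 4.20 each) holds 1 miR-1193-3p site. Trim71, a stem cell RNA-binding ubiquitin ligase, had 4 regions, of which 2 were matched to miR-495-3p and 2 to miR-543-3p, with log2 folds from 2.19 to 4.24, and 3 of them lay beyond the gene's RefSeq 3′ end. Mkrn3, an imprinted makorin ring finger gene, had the most regions, 5 in all, with log2 folds from 1.41 to 2.85. Of these, 3 adjoined and were matched to miR-495-3p, and the other pair adjoined and was matched to miR-539-5p. Ankrd52, a subunit of the phosphatase that removes phosphates from Argonaute in human cells, had a miR-1193-3p region with 4.35 and 2 miR-377-3p regions with 3.65 and 2.18. Spty2d1, a histone chaperone gene, had 3 regions matched to miR-377-3p, miR-543-3p and miR-539-5p, with 2.58 to 3.31.

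Other genes with regions or microRNAs in combination were Eps15, Nabp1, Yod1, Tnrc6b, Crebrf and Zfp281. In Eps15, an endocytic adaptor, a single region of 44 bases (log2 fold 4.08) held both a miR-377-3p and a miR-1193-3p site. In Nabp1, a single-stranded DNA binding protein gene, a region of 102 bases (3.75) held a miR-1193-3p and a miR-495-3p site. Yod1, a deubiquitinase gene, had a miR-300-5p region with 4.16 and a miR-495-3p region with 3.21. Tnrc6b, one of the TNRC6 genes, had a miR-543-3p region with 3.82 and a miR-377-3p region with 2.47. Crebrf, a stress-responsive regulator of CREB3, had a miR-300-5p region with 3.58 and a miR-495-3p region with 3.08. Zfp281, a stem cell zinc finger factor, had a miR-495-3p region with 3.58 and a miR-543-3p region with 2.80.

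Abundance of a microRNA and its number of matched regions did not go together. In the deposited table, miR-495-3p had the most regions of all 33 microRNA names (88 before regions were left out), yet its counts summed to 203 over the 3 control iN libraries. miR-382-5p, at a sum of 174934, had 13 regions. Across the 31 names with counts, Spearman's rho between regions and counts was −0.0024. The points share the same libraries and the same peak list, and the value is a description only.

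**Figure D2:**
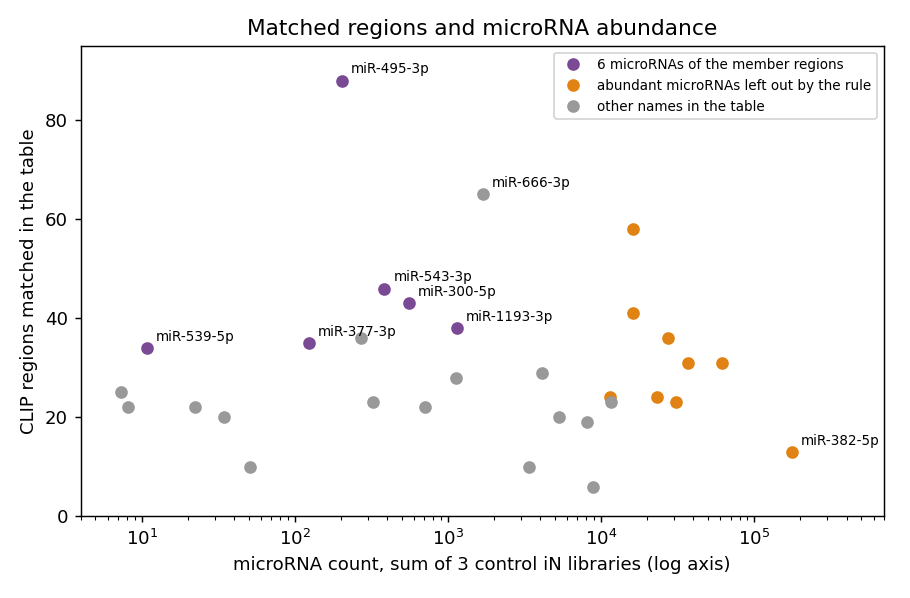
CLIP regions matched in the authors' table (y axis) against the summed count of the microRNA in the 3 control iN libraries (x axis, log scale), 1 point for each of 31 names; counts of regions are before any were left out. miR-495-3p stands at 88 regions with a count of 203, while miR-382-5p stands at 13 regions with a count of 174934.

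The 6 microRNAs were scarce in control cells and had no counts in any deletion library. Together they held 0.435% to 0.486% of the cluster's microRNA counts in control iNs and 1.70% to 2.57% in control ESCs. In deletion libraries all 6 had 0 counts, in 3 of 3 iN and 3 of 3 ESC libraries. Mirg, the host transcript of the deleted cluster, had 0 to 2 counts in deletion iNs, against 455 to 685 in control iNs, and 0 in deletion ESCs, against 672 to 932 in control ESCs. Small RNA libraries held 744279 to 1532230 mature microRNA counts and RNA-seq libraries 14904735 to 21499106 counts.

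On the CPM scale, on which each library's mature microRNA counts are set to a common total, miR-1193-3p was the most abundant of the set in control iNs, with 262, 261 and 288 CPM in libraries A to C. miR-300-5p had 122, 136 and 139 CPM, and miR-543-3p had 75.3, 107 and 93.3 CPM. miR-495-3p had 52.8, 50.4 and 41.7 CPM, and miR-377-3p had 26.9, 35.4 and 26.5 CPM. These 5 microRNAs did not overlap with their neighbours in this order. miR-539-5p had 0.65, 6.68 and 0.76 CPM, from counts of 0.95, 8.75 and 1.09, and was under the filter on low counts, so it was not tested. Among the 63 named mature microRNAs of the cluster, miR-1193-3p ranked 24 by count in control iNs and miR-495-3p ranked 40.

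In control ESCs miR-1193-3p was again the highest of the set, with 788, 806 and 838 CPM. miR-543-3p had 628, 380 and 448 CPM, miR-495-3p had 354, 157 and 182 CPM, and miR-377-3p had 206, 128 and 74.2 CPM. miR-495-3p and miR-377-3p overlapped there. miR-300-5p had 34.0, 37.2 and 37.7 CPM and miR-539-5p had 14.9, 8.52 and 2.54 CPM, with no overlap between them or with the others.

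Deletion lowered each tested member microRNA in both cell types. Since all deletion libraries were at 0, a fold was set against a floor of 3 counts over the 3 deletion libraries, about 1 CPM. In iNs, miR-1193-3p was at least 261-fold lower than in controls, miR-300-5p at least 127-fold, miR-543-3p at least 88.2-fold, miR-495-3p at least 46.6-fold and miR-377-3p at least 28.4-fold lower. By edgeR's quasi-likelihood test with Benjamini-Hochberg adjustment all 5 fell, with adjusted p from 2.98e-18 to 7.30e-10, where 24.2% of the 433 microRNAs tested were called lower. In ESCs the same 5 fell by the same test, with adjusted p from 9.47e-08 to 1.25e-04, where 13.8% of 450 were called lower. The bounds there ran from at least 36.0-fold for miR-300-5p to at least 804-fold for miR-1193-3p. miR-539-5p was at least 2.48-fold lower in deletion iNs and at least 7.64-fold lower in deletion ESCs, with no test. Floors cover counting error only.

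Between cell types, miR-300-5p ran opposite to the rest. In control iNs it had 122 to 139 CPM, against 34.0 to 37.7 CPM in control ESCs, a log2 difference of 2.10 ± 0.22 (SE, n = 3 each), with an adjusted p of 2.88e-07 by edgeR. miR-543-3p had 75.3 to 107 CPM in control iNs, against 380 to 628 CPM in control ESCs, and fell by 2.16 ± 0.23 on the log2 scale (adjusted p = 2.95e-07 by edgeR). miR-495-3p fell by 2.0 ± 0.29, miR-377-3p by 1.93 ± 0.31 and miR-1193-3p by 1.35 ± 0.16. These log2 differences come from a fit of both cell types, while the CPM were scaled within each, so they do not match exactly. In the same edgeR comparison 41.5% of 523 microRNAs were called higher and 44.2% lower. Scaling to all small RNA features raised the median microRNA by 0.48 on this log2 scale, and DESeq2's size factors by 0.19, and both left the 1 rise and 4 falls in place. In the deletion comparisons the first scaling moved that median by −0.27 in iNs and 0.18 in ESCs, and the number of falls stayed at 5. miR-539-5p had 0.65 to 6.68 CPM in control iNs, against 2.54 to 14.9 CPM in control ESCs, and these ranges overlapped.

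**Figure D3:**
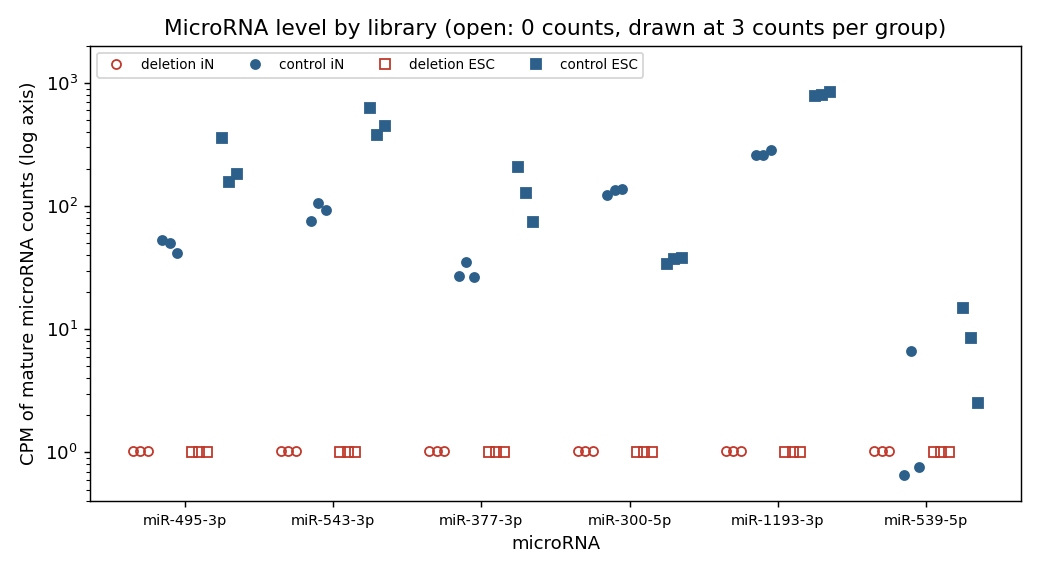
CPM of mature microRNA counts (y axis, log scale) in each library for the 6 microRNAs (x axis), with deletion in red and control in blue, iNs as circles and ESCs as squares; open marks are libraries with 0 counts, drawn at the level of 3 counts over a group. All deletion libraries are at 0, and miR-300-5p alone of the 6 is higher in control iNs (122 to 139 CPM) than in control ESCs (34.0 to 37.7 CPM).

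RNA of genes with a member region moved both ways in deletion iNs, with more falls than rises. Of the 224 genes, 223 passed the filter on low counts, and H2-M10.5 did not, with 0 counts in every library. By edgeR's quasi-likelihood test, 29 (13%) rose and 51 (22.9%) fell in deletion iNs relative to control iNs, where 12.4% of all 16028 genes were called higher and 13.3% lower. The median log2 fold change of the 223 genes was −0.05, against 0.004 over all genes, and 40.4% of them were above 0, against 50.7% of all genes. Genes with a member region were more highly expressed, with a median log2 CPM of 6.54 against 4.09. Among all 5893 genes with a log2 CPM averaging 5 or more, 14.4% were called higher and 21.2% lower, and the 178 such genes with a member region had 23 rises (12.9%) and 42 falls (23.6%). The shares among genes with a member region were thus near those of genes of similar expression. In such bulk samples fewer cells of a type and less RNA per cell cannot be told apart.

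Other classes of matched genes had similar counts. Of 226 genes with regions of the 13 abundant microRNAs, 37 rose and 50 fell, and of 219 genes with regions of other cluster microRNAs only, 33 rose and 51 fell. Among the 179 tested genes with a member region and none of an abundant microRNA, 20 rose and 38 fell. Genes with a region at least 2-fold above both untagged IP and input had 20 rises and 36 falls among 134. The highest log2 fold of a gene's regions over untagged IP had a Spearman's rho of −0.065 with its deletion effect across 223 genes, which are not independent replicates, and one of −0.24 with its CPM in control iNs. Among the 32 genes with more than 1 member region, 5 rose and 10 fell.

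By microRNA, genes of miR-495-3p and of miR-543-3p had the most falls. Of 78 tested genes of miR-495-3p, 6 rose and 22 fell (28.2%), with a median log2 fold change of −0.08. Of 41 genes of miR-543-3p, 6 rose and 14 fell (34.1%), with a median of −0.05. Of 31 genes of miR-539-5p, 3 rose and 8 fell, and of 39 genes of miR-300-5p, 6 rose and 8 fell. Genes of miR-377-3p (6 rises, 5 falls among 31) and of miR-1193-3p (6 rises, 4 falls among 35) had nearly equal numbers. For comparison, 13.3% of all genes tested fell, as did 21.2% of the 5893 genes whose log2 CPM averaged 5 or more. Median log2 CPM was 6.64 for genes of miR-495-3p and 6.09 for genes of miR-543-3p. No background was matched to the genes of a single microRNA, so these shares do not single out any of the 6. The differences between microRNAs were not tested, and 29 genes count under more than 1 of them.

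**Figure D4:**
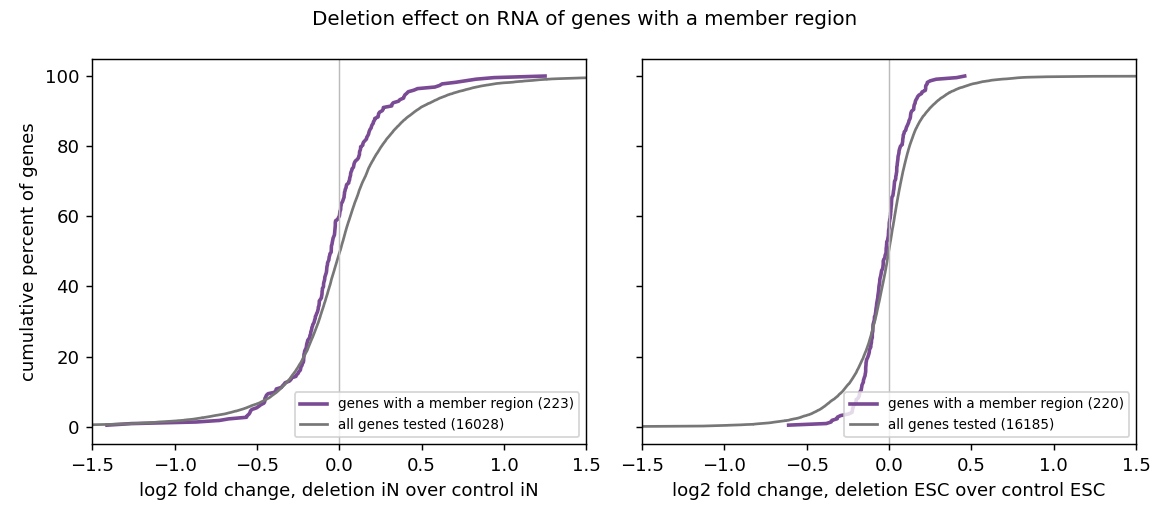
Cumulative percent of genes (y axis) by log2 fold change of deletion over control (x axis, cropped at −1.5 and 1.5) in iNs on the left and ESCs on the right, for genes with a member region (purple) and all genes tested (grey). In iNs the purple curve runs left of the grey one around 0, with medians of −0.05 and 0.004, and in ESCs both medians are within 0.02 of 0.

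All 80 called genes were separated between the 3 deletion and 3 control iN libraries, as were 97.9% of all 4109 genes called. The changes were modest. Rises had a median size of 0.39 on the log2 scale and falls one of 0.34, and 1 rise and 2 falls reached 1. Markers of cell state also differed between these libraries. The summed CPM of 6 pluripotency markers was 7.31 to 8.22 in deletion iNs, against 14.1 to 15 in control iNs and 1465 to 1509 in control ESCs. A sum can hide markers that differ in direction. In a list of 11 pluripotency genes, 6 passed the filter on low counts in iNs, and 4 of these fell and 1 rose. The summed CPM of 8 neuronal markers was 5927 to 5961 in deletion iNs, against 5532 to 5612 in control iNs and 167 to 174 in control ESCs. Glial markers summed to 47.8 to 55 CPM over 5 genes in deletion iNs, with Gfap at 0, against 42.2 to 44.8 in control iNs, again with Gfap at 0. Fibroblast markers summed to 64.3 to 72.4 CPM over 4 genes, against 39.6 to 52.3, and the 3 proliferation markers to 5.47 to 6.01 CPM, against 4.22 to 5.17. Their part in the results was not tested.

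Among the rises, the largest beyond a mean log2 CPM of 2 was Slc24a2, a potassium-dependent sodium-calcium exchanger of neurons with a miR-539-5p region. It had 333, 344 and 336 CPM in deletion iNs, against 158, 183 and 187 CPM in control iNs, a log2 fold change of 0.94 ± 0.06 (SE, n = 3 each; adjusted p = 7.11e-08 by edgeR). Every deletion library lay far above every control library. Crebrf, with its miR-300-5p and miR-495-3p regions, had 49.1, 55.3 and 45.8 CPM in deletion iNs, against 29.7, 26.7 and 28.2 CPM in control iNs (0.83 ± 0.08). Snhg11, a noncoding snoRNA host gene with adjoining miR-543-3p regions, had 748, 861 and 828 CPM in deletion iNs, against 457, 409 and 566 CPM in control iNs (0.77 ± 0.09). The control libraries of Snhg11 spread more, relative to their mean, than those of Slc24a2 and Crebrf, without reaching the deletion libraries. The Snhg11 regions had log2 folds of 0.77 and 0.62 over untagged IP.

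Mycl, a Myc family transcription factor with a miR-495-3p region, was low and had 6.80, 7.98 and 7.73 CPM in deletion iNs, against 5.67, 4.00 and 4.26 CPM in control iNs (0.71 ± 0.16). The Mycl region was near the untagged IP, with a log2 fold of 0.12. Peg3, a paternally expressed imprinted zinc finger gene with regions of miR-495-3p and miR-543-3p, had 915, 910 and 939 CPM in deletion iNs, against 548, 555 and 690 CPM in control iNs (0.62 ± 0.07). Ccng2, which encodes the growth-inhibiting cyclin G2, had 43.6, 51.0 and 39.9 CPM in deletion iNs, against 27.1, 30.7 and 30.2 CPM in control iNs (0.61 ± 0.09). These genes rose in each deletion library. Gxylt1, a xylosyltransferase that modifies Notch, rose by 0.58 ± 0.09 and Tnrc6b by 0.48 ± 0.06 on the log2 scale. Adjusted p of these 7 rises after Slc24a2 ran from 1.85e-06 to 0.00355 by edgeR. Rgs16, a regulator of G protein signalling with a miR-495-3p region, had the largest rise of all, 1.25 ± 0.23, at 4.41 to 5.82 CPM in deletion iNs, against 1.3 to 2.78 CPM in control iNs. The Rgs16 region had a log2 fold of 0.73 over untagged IP.

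Among the falls, Bcat1, the cytosolic branched-chain amino acid transaminase, was the largest at that expression, with a miR-495-3p region of modest fold (log2 0.85 over untagged IP). It had 73.7, 80.4 and 69.1 CPM in deletion iNs, against 187, 187 and 159 CPM in control iNs, a log2 fold change of −1.26 ± 0.07 (adjusted p = 2.02e-08 by edgeR, n = 3 each). Polr3g, an RNA polymerase III subunit of stem cells with a miR-539-5p region, had 70.6, 73.8 and 69.1 CPM in deletion iNs, against 118, 118 and 117 CPM in control iNs (−0.73 ± 0.05). The groups of both genes were far apart compared with their spread. Trim71, with 4 member regions, had 68.7, 62.2 and 70.3 CPM in deletion iNs, against 104, 99.9 and 93.4 CPM in control iNs (−0.56 ± 0.06). Mycn, a Myc family transcription factor with a miR-543-3p region, had 29.1, 29.9 and 28.3 CPM in deletion iNs, against 42.6, 43.5 and 40.9 CPM in control iNs (−0.54 ± 0.06).

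Insig1, Scd2 and Serp1 were also among the largest falls. Insig1, which retains the sterol-sensing SREBP complex in the endoplasmic reticulum and has a miR-495-3p region, had 124, 128 and 123 CPM in deletion iNs, against 180, 193 and 225 CPM in control iNs (−0.67 ± 0.07). Scd2, a fatty acid desaturase of brain with adjoining miR-539-5p regions, had 2080, 1970 and 1970 CPM in deletion iNs, against 2720, 2960 and 3170 CPM in control iNs (−0.56 ± 0.06). Both genes were lower in each deletion library. Over untagged IP the Scd2 regions had log2 folds of 0.51 and 0.23, and the Insig1 region had 1.13. Serp1, a protein of the stressed endoplasmic reticulum, fell by 0.54 ± 0.06. Adjusted p of Polr3g, Trim71, Mycn, Insig1, Scd2 and Serp1 ran from 2.24e-07 to 1.89e-05 by edgeR.

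**Figure D5:**
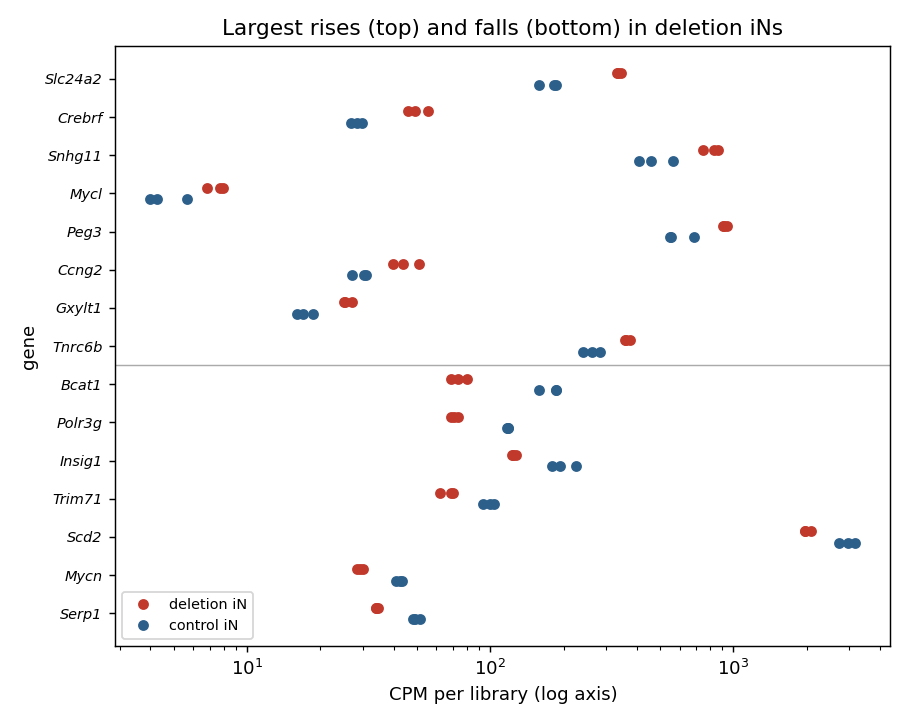
CPM in each library (x axis, log scale) of the 8 genes with the largest rises at a mean log2 CPM of 2 or more (upper rows) and 7 of those with the largest falls at that expression (lower rows) in deletion iNs (red) and control iNs (blue), 3 libraries each. The colours do not overlap for any gene drawn, from Slc24a2 with 333 to 344 CPM against 158 to 187 CPM to Serp1 with 33.7 to 34.6 CPM against 48.1 to 51.4 CPM.

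The genes with the highest regions did not follow a common direction in deletion iNs. By edgeR's quasi-likelihood test, Ddx3x fell, with 277, 286 and 292 CPM in deletion iNs, against 432, 359 and 380 CPM in control iNs (−0.45 ± 0.06, adjusted p = 9.74e-05). Zfp280b fell by 0.45 ± 0.08 and Eps15 by 0.38 ± 0.06. Asxl3 rose, with 322, 330 and 341 CPM in deletion iNs, against 250, 259 and 233 CPM in control iNs (0.42 ± 0.05, adjusted p = 4.60e-05 by edgeR), and Lin28b fell by 0.43 ± 0.06. No change passed the test for Zfp367 (0.36 ± 0.24), Cux1 (0.16 ± 0.06), Pptc7 (−0.08 ± 0.09), Rictor (−0.02 ± 0.06), Neurod1 (0.27 ± 0.12), Npat (0.13 ± 0.06), Yod1 (0.09 ± 0.07) and Zfp281 (−0.15 ± 0.07), with adjusted p from 0.0797 to 0.81 by edgeR. Klf2 was near the detection limit in iNs, with 0.36, 0.32 and 0.47 CPM in deletion iNs, against 0.75, 1.54 and 0.71 CPM in control iNs, and its call (adjusted p = 0.0196 by edgeR) was lost without control library B (log2 fold change −0.92, adjusted p = 0.166), without deletion library A (adjusted p = 0.0657) or B (0.0745), and by DESeq2's Wald test (0.0879).

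Ankrd52 rose by 0.21 ± 0.06 (adjusted p = 0.0268 by edgeR), a call that was lost when any of 4 libraries was left out, with adjusted p of 0.0905 and 0.0624 without control libraries A and B and of 0.0903 and 0.109 without deletion libraries A and C. Nabp1 fell by 0.44 ± 0.13 (adjusted p = 0.0237 by edgeR) and lost its call without control library A (adjusted p = 0.0706) or deletion library A (0.103). Spty2d1 fell by 0.39 ± 0.08 (adjusted p = 0.0025 by edgeR).

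The machinery of silencing itself carried member regions in 4 of the 26 genes listed for it. Tnrc6b rose in deletion iNs, with 357, 374 and 363 CPM, against 241, 263 and 282 CPM in control iNs. Tnrc6a, with a miR-1193-3p region (log2 fold 3.18 over untagged IP and 6.59 over input, the highest over input of all member regions), had 139, 138 and 145 CPM in deletion iNs, against 117, 116 and 136 CPM in control iNs, and rose by 0.20 ± 0.06 (adjusted p = 0.0316 by edgeR). Ago2 (0.01 ± 0.05) and Dicer1 (−0.04 ± 0.05), the enzyme that cuts microRNA hairpins, did not pass the test. The Ago2 region had a log2 fold of 0.23, in cells that also expressed exogenous Ago2, whose RNA cannot be told apart here. Over the whole list of 26 genes, 5 rose and 2 fell, with a median log2 fold change of −0.007.

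Among 30 tested genes of RNA binding and translation, 4 rose and 7 fell, with a median of −0.04, and 6 carried member regions. Of these 6, Nova1, a neuronal splicing factor, rose by 0.45 ± 0.11, and Pum2, a repressor that binds messages, and Eif4g2, a translation initiation factor, fell by 0.22 ± 0.06 and 0.19 ± 0.06. Fmr1 (0.17 ± 0.07), Cpeb2 (0.12 ± 0.06) and Hnrnpa2b1 (−0.02 ± 0.05) did not pass the test. Of all genes tested in iNs, 1.39% had a member region, so that few would be found in short lists. Of 40 synapse and vesicle genes, 20 rose and 3 fell with a median of 0.18, and Nlgn2 alone of them had a member region (0.08 ± 0.06, not called). Among 38 genes of chromatin and transcription, 10 rose and 8 fell, and of the 3 with a member region Onecut2, a neuronal homeodomain factor, fell by 0.20 ± 0.06 (adjusted p = 0.0269 by edgeR). Kmt2c (0.13 ± 0.06) and Neurod1 (0.27 ± 0.12) did not pass the test. Of 18 ubiquitin and proteolysis genes 3 rose and 1 fell, and Nedd4, the only gene of that list with a member region, did not pass the test (−0.10 ± 0.05). None of 18 pan-neuronal, 22 ion channel, 30 axon guidance, 24 cytoskeleton or 30 signalling genes had a member region.

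In ESCs few genes with a member region changed. Of 220 tested, 5 rose and 1 fell by edgeR's quasi-likelihood test, where 1.37% of 16185 genes were called higher and 0.544% lower. ESC libraries of 1 letter deviated together, and this fit did not pair them. With the letter as a block 11 rose and 16 fell, where 3.2% of all genes were called higher and 3.1% lower. Values of single genes in ESCs below are from the fit without the block unless the block is named. Peg10, an imprinted gene derived from a retrotransposon, had 2920, 3020 and 3130 CPM in deletion ESCs, against 2230, 2290 and 2320 CPM in control ESCs (0.41 ± 0.04, adjusted p = 0.0014 by edgeR). Tbx3, a T-box transcription factor with a miR-495-3p region, had 34.8, 36.8 and 34.6 CPM in deletion ESCs, against 44.4, 46.6 and 44.1 CPM in control ESCs (−0.35 ± 0.05, adjusted p = 0.0099 by edgeR). Both were separated from their controls in every library, as were all 309 genes called in ESCs.

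Scd2 had 675, 742 and 725 CPM in deletion ESCs, against 583, 598 and 575 CPM in control ESCs (0.29 ± 0.04, adjusted p = 0.0115 by edgeR). Wnk1, a kinase that controls ion cotransporters, had 731, 766 and 774 CPM in deletion ESCs, against 636, 654 and 660 CPM in control ESCs (0.22 ± 0.04, adjusted p = 0.0173 by edgeR). Itga6, an integrin subunit, and Ncoa3, a transcriptional coactivator, rose by 0.20 ± 0.04 each. The 5 rises were down to 1 without control library A, B or C or deletion library B and to 2 without deletion library C, and the fall was lost without control library B. Scd2, for example, had adjusted p of 0.0569, 0.0646 and 0.0596 without control libraries A, B and C and of 0.0745 without deletion library B, and Tbx3 had 0.0668 without control library B. Wnk1 had adjusted p of 0.0848, 0.104 and 0.0592 without control libraries A, B and C and of 0.132 and 0.0698 without deletion libraries B and C.

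The effect of deletion differed between cell types for 58 of 223 tested genes with a member region. By the interaction in edgeR, 18 (8.07%) had a higher effect in iNs than in ESCs and 40 (17.9%) a lower one, where 5.01% of 18299 genes were called higher and 8.5% lower. Genes with a member region were more highly expressed, with a median log2 CPM of 6.51 against 3.84 over all genes. No background of similar expression was made for the interaction, so these shares do not single out genes with a member region. Without deletion iN library B the lower calls fell to 26. Slc24a2 had the largest difference, 1.97 on the log2 scale (adjusted p = 0.0032 by edgeR), but its ESC counts were 2 to 5 in deletion and 6 to 11 in control libraries. Klf2 had −1.42 (adjusted p = 0.0081 by edgeR), with 135 to 146 CPM in deletion ESCs and 139 to 151 CPM in control ESCs, and its call was lost without control iN library B (−0.91, adjusted p = 0.16). Bcat1 had −1.30 (adjusted p = 4.24e-07 by edgeR), with 311 to 321 CPM in deletion ESCs against 307 to 314 CPM in control ESCs. Rgs16 had 1.15 (adjusted p = 0.0095 by edgeR), with 4.64 to 5.15 CPM in deletion ESCs against 4.56 to 4.73 CPM in control ESCs.

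The 4 genes that changed in both cell types were Scd2, Peg10, Itga6 and Tbx3, and the first 3 changed in opposite directions. Scd2, Peg10 and Itga6 fell in deletion iNs, by 0.56, 0.29 and 0.39 on the log2 scale, and rose in deletion ESCs, by 0.29, 0.41 and 0.20. The interaction was −0.86 for Scd2, −0.72 for Peg10 and −0.60 for Itga6, with adjusted p of 4.62e-06, 6.99e-06 and 1.23e-04 by edgeR. Tbx3 fell in both, by 0.53 in iNs and 0.35 in ESCs, and its interaction did not pass the test (adjusted p = 0.12 by edgeR).

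Genes with a member region also differed between the control cell types. Of 223 tested, 115 were higher and 90 lower in control iNs than in control ESCs by edgeR, where 43.9% of 17247 genes were called higher and 45.1% lower. The median log2 difference was 0.20, against −0.03 over all genes. It was 1.06 for genes of miR-1193-3p, 0.91 for miR-377-3p, 0.70 for miR-543-3p and 0.61 for miR-539-5p. It was −0.03 for genes of miR-495-3p and −0.41 for genes of miR-300-5p. The regions were called in iN RNA only, which may favour genes expressed there. The deposited list also held a miR-495-3p region in H2-M10.5, a gene with 0 RNA-seq counts in every library. That region had a log2 fold of 1.58 over untagged IP and 2.98 over input. Its −log10 p, from the authors' unstated caller, was only 0.20 and 1.18, so it was not clearly above either. Trim71 and Mycn were lower in control iNs, with log2 differences of −3.03 and −2.69, while Asxl3 and Eps15 were higher, with 4.8 and 3.29. This comparison shares the control iN libraries with the deletion comparison.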

How the data were processed

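Small RNA-seq and RNA-seq gave, per the file headers, RSEM expected counts and posterior mean counts. The deposited CLIP lists gave each region a log2 fold and a −log10 p, made by the authors by an unstated caller. The authors' DESeq2 tables, which hold normalised means (a signal), log2 folds and p-values per the file headers, were used for microRNA names only, matched to counts with a relative tolerance of 1e-08 (828 of 1907 accessions, 99.99% of mature counts). Tools listed in the submitters' processing notes, without roles, were STAR (2.4.1d), RSEM (1.2.30), cutadapt (1.4.2), SAMtools and DESeq2, with the build mm10. Strand setting and annotation release were not given in the sources used here, so counts of overlapping or near-identical genes are uncertain.

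Regions were read from the authors' table, with joint names split into their parts. Both deposited lists hold the same 22400 regions. Rounded expected counts entered edgeR (4.0.16, under R 4.3.3) with TMM factors, after filterByExpr had removed features under its minimum count of 10. The quasi-likelihood F test was adjusted over all features by Benjamini-Hochberg, with calls under 0.05. Each comparison used its 6 libraries, and the interaction all 12. SE is the log2 fold change divided by the square root of F, and CPM uses the TMM-scaled library size. The code was tested on simulated data. The p-values measure the spread between these libraries, which may be technical. In the ESC RNA-seq libraries, those of 1 letter deviated together (r = 0.348, 0.107 and 0.136 across genes). The main ESC fit did not pair them, and counts from a fit with the letter as a block are given beside it. In the ESC small RNA libraries r was 0.536, 0.0314 and 0.362 for letters A to C, and the main fit there took no pairs either.

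The members, lists and tests were chosen with earlier results of these data known. Named genes were by rule those with more than 1 member region or microRNA (12 of highest fold), the 8 of highest fold, the 8 largest rises and 8 largest falls in iNs, the 4 largest changes in ESCs and in the interaction (called, mean log2 CPM of at least 2, no Gm or Rik names) and the highest region of each microRNA. Lin28b, Mkrn3, Itga6, Ncoa3, the genes given from the lists, and Rgs16 in the iN comparison were named after their values were seen, and 1 gene that the rule named is not reported here. Alternatives were DESeq2 1.42.0 (size factors, Wald test), no filter, all 12 libraries, a replicate block, each library left out, all small RNA features, and stricter regions. Posterior mean counts, the whole-name reading, the highly expressed background and regions 2-fold over both were added after seeing the data.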

Additional observations from a re-analysis of the deposited data

Results flagged for a closer look

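The interaction test in edgeR found that the effect of deletion differed between iNs and ESCs for 29 of the genes named in the text. The log2 difference, iN effect minus ESC effect, was positive for Slc24a2 (1.97), Rgs16 (1.15), Crebrf (1.04), Mycl (0.80), Ccng2 (0.75), Nova1 (0.79), Snhg11 (0.70), Peg3 (0.63), Tnrc6b (0.50), Gxylt1 (0.48), Asxl3 (0.47) and Kmt2c (0.26). It was negative for Klf2 (−1.42), Bcat1 (−1.30), Polr3g (−0.90), Scd2 (−0.86), Insig1 (−0.72), Peg10 (−0.72), Trim71 (−0.64), Itga6 (−0.60), Mycn (−0.56), Serp1 (−0.52), Ddx3x (−0.49), Zfp280b (−0.49), Spty2d1 (−0.43), Eps15 (−0.43), Gnas (−0.34), Ncoa3 (−0.34) and Lin28b (−0.33). Many of these genes were named for a large effect in iNs, which is part of the same difference. Klf2 rests on about 1 CPM in iNs and Slc24a2 on a few counts in ESCs.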

How the results depend on the processing

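Counts of changed genes with a member region in iNs stayed between 22 and 31 rises and between 36 and 60 falls when single libraries were left out, and within 1.5 times the reported values under the other settings. In ESCs they depended on the fit: with the replicate block 11 rose and 16 fell, and with single libraries left out rises ran from 1 to 5 and falls from 0 to 1. For the interaction, lower calls ran from 26 to 39 and higher calls from 16 to 21 with single libraries left out. Leaving out single libraries gave 112 to 116 rises and 88 to 92 falls between control iNs and control ESCs, and the counts of called microRNAs did not move by over 1.5 times. With the replicate block 27 rose and 44 fell in deletion iNs. Letters did not pair the libraries there, with r of −0.0491, 0.0176 and 0.0358, and the block changed no other count by over 1.5 times. Regions at or above the median log2 fold numbered 134, by construction, and the whole-name reading gave 269 regions. Rictor's log2 fold change in iNs was 0.0251 without control library A and −0.0786 without control library B, with no call either way, and Neurod1 passed the test without that library (adjusted p = 0.0331 by edgeR). Klf2 was not called by DESeq2's Wald test (adjusted p = 0.0879). Of the values of single genes and microRNAs, 708 kept direction and call, 21 lost the call, 1 gained it and 1 changed sign. The causes were not tested.

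Not run were overlap with the list over input, since both lists hold the same regions, and 6-base or extended seed matches and exons, for which no genome or exon annotation was used here. Counting limits miR-539-5p, at 0.95 to 8.75 counts a library in control iNs, and Klf2.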

Other observations

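Imprinted genes recur among the genes with member regions. A list of 57 known imprinted mouse genes, made after the regions had been seen, held 8 genes with a region matched to any cluster microRNA and 4 with a member region. These 4 were Mkrn3, Peg3, Peg10 and Gnas, the gene of a stimulatory G protein subunit. Mkrn3 had 43.9, 37.7 and 38.4 CPM in deletion iNs, against 36.9, 34.9 and 34.8 CPM in control iNs (log2 fold change 0.17 ± 0.07), and did not pass edgeR's test (adjusted p = 0.089). The lowest deletion library of Mkrn3, at 37.7 CPM, was close to its highest control library, at 36.9 CPM. Gnas, whose miR-300-5p regions had log2 folds of 0.03 and −0.53 over untagged IP, had 719, 719 and 695 CPM in deletion iNs, against 823, 796 and 834 CPM in control iNs (−0.20 ± 0.05, adjusted p = 0.007 by edgeR). Peg3 rose and Peg10 fell in deletion iNs. The number of imprinted genes was not tested against other genes, since the list was chosen after the fact.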
